A study of Mus musculus with 8 samples.

Results

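The genes described here are the 8 neuronal nicotinic acetylcholine receptor subunit genes Chrna3, Chrna4, Chrna5, Chrna6, Chrna7, Chrnb2, Chrnb3 and Chrnb4, with Slc5a7 and Ache. They were taken by name, 10 of the 43372 gene symbols in the count table, and all 10 were found. They were measured by RNA sequencing in sensory neurons of mouse dorsal root ganglia (DRG), picked by hand from 2 Cre lines on a C57Bl/6 background. In 4 Sst samples (genotype Ssttm2.1(cre)Zjh/J, Sst-IRES-Cre) Cre recombinase was made from the somatostatin locus, and in 4 Trpv1 samples (genotype Trpv1tm1(cre)Bbm/J, Trpv1-IRES-Cre) from the locus of the heat- and capsaicin-gated channel. Pups of both lines were injected at postnatal day 2 with an adeno-associated virus that expresses eGFP or tdTomato where Cre is active, and 150 to 250 fluorescent neurons per mouse were collected at 3 to 5 weeks of age from mice of both sexes. There was no unlabelled or wild-type control, and each library is a pool of cells. The members were chosen with the difference between the 2 populations known, so their values in this contrast are a description and carry no p-value.

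Nicotinic receptors are cation channels opened by acetylcholine, built from several subunits around a pore. Combinations of alpha and beta subunits set their pharmacology: the products of Chrna3 and Chrnb4 form the main receptor of autonomic ganglia, those of Chrna4 and Chrnb2 the most common receptor of the brain, and that of Chrna7 a channel of its own with high calcium permeability. The products of Chrna5 and Chrnb3 are accessory subunits that join other alpha and beta subunits. Slc5a7 encodes the high-affinity choline transporter that supplies cholinergic terminals, and Ache encodes acetylcholinesterase, which breaks acetylcholine down. Sensory neurons of the DRG carry nicotinic receptors, and Chrna6 has been linked to pain sensitivity in mice.

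Of the 10 genes, 8 had promoter entries in RefSeq (GRCm38.p6), each spanning 250 bases before to 50 bases after the annotated start, and Chrna6 and Chrnb3 were not among them. The first 3 sequences below belong to members that were far lower in Sst libraries, and that of Ache, which was counted at like levels in both populations, stands beside them. Capitals mark the GC box GGGCGG, the TATA box TATAAA and the E-box CANNTG, searched on both strands; the cyclic AMP response element TGACGTCA was searched too and was in none of the members' windows. Overlapping matches are joined in capitals.
Chrna3 (chr9:55026513-55026812, minus strand): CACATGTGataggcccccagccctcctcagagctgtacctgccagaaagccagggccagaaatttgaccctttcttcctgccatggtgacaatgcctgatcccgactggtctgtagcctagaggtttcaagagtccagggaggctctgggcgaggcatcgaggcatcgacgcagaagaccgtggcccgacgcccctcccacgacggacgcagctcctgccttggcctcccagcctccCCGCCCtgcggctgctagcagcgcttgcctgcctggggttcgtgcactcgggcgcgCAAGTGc
Chrnb4 (chr9:55048495-55048794, minus strand): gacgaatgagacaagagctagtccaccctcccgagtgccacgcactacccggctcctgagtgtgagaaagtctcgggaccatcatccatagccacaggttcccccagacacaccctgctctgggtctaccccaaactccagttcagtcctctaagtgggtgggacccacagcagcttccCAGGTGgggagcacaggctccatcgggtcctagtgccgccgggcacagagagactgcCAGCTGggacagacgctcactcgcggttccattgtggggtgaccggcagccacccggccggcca
Slc5a7 (chr17:54298985-54299284, minus strand): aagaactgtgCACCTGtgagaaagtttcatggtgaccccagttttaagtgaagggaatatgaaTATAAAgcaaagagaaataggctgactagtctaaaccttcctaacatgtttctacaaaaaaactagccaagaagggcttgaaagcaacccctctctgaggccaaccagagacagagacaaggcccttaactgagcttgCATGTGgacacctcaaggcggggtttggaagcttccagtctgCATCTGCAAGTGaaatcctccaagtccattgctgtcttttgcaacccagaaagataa
Ache (chr5:137288004-137288303, plus strand): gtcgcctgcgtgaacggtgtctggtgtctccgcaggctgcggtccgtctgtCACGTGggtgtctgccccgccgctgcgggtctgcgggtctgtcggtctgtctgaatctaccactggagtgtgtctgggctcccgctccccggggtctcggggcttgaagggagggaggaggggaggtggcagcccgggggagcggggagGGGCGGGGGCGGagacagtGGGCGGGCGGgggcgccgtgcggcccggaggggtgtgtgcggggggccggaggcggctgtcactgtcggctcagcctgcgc
The GC box occurred once in the window of Chrna3, 4 times in that of Ache, and in neither of the windows of Chrnb4 and Slc5a7; 35.7% of the 32851 promoter entries held it. The windows of Chrna3, Chrnb4 and Slc5a7 held 3, 2 and 4 E-boxes and that of Ache 1, a motif found in 72.3% of all entries. Levels of Chrna4, Chrnb2 and Chrna7 also overlapped between the populations. Their windows, not printed, held 0, 2 and 2 E-boxes and 3, 1 and 1 GC boxes. The Slc5a7 window held 1 TATA box, against 13.6% of all entries with any. GC content was 64.3% for Chrna3, 63.0% for Chrnb4, 44.7% for Slc5a7 and 74.0% for Ache, with a median of 52.7% over all entries. A match to these letters is a description of the sequence and not a binding site.

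Library totals ran between 9021125 and 12153109 counts in Sst samples and between 7419027 and 9568508 in Trpv1 samples. Levels are given as CPM, counts scaled to the library size after TMM normalisation. Sst, the gene behind one label, had a mean of 198 ± 106 CPM in Sst libraries and 94.2 ± 47.4 CPM in Trpv1 libraries, and Trpv1 had 101 ± 69.2 CPM in Sst libraries and 195 ± 77.9 CPM in Trpv1 libraries (SD, n = 4 each). Their ranges overlapped between the populations. Across 11828 genes tested with the quasi-likelihood test of edgeR, 6.35% differed at an adjusted p under 0.05, 3.04% higher and 3.31% lower in Sst libraries. The CPM ranges of the groups did not overlap for 11.1% of the genes. Trpv1 replicates 1 and 2 held Y-linked counts and 0 counts of Xist, whereas the other 6 libraries held Xist and 0 Y-linked counts. Summed CPM of 7 pituitary hormone genes ran between 0.0907 and 457 in Sst libraries (457 in replicate 2) and between 0 and 1750 in Trpv1 libraries (0 in replicate 4). Sst replicates 1, 3 and 4 and Trpv1 replicate 4 held 0 counts of Gh and 0 or 1 of Prl, 2 of these genes. Below they are called the libraries without pituitary hormone RNA, which is a short name only. Of these, Sst replicates 1, 3 and 4 still held 3.88, 1.11 and 0.0907 CPM over the 7 genes, mostly from Tshb (38, 11 and 1 counts). In these pools, fewer cells of a type and less RNA per cell cannot be told apart.

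Chrna3 and Chrnb4 were abundant in Trpv1 libraries and scarce in Sst libraries, as was Slc5a7 at a lower level. Chrnb3 was abundant in Trpv1 libraries and counted at a lower level in 3 of the 4 Sst libraries. Chrna6, Chrnb2, Chrna4, Chrna7 and Ache overlapped between the populations, and Chrna5 was nearly absent. Of the 10 genes 9 passed the expression filter; 4 of these were called lower in Sst libraries (Chrna3, Chrnb3, Chrnb4 and Slc5a7), 0 higher and 5 were not called. The same 4 were the members without overlap between the groups. Because the members were chosen on this contrast, these counts are not read against the shares of 3.31% and 11.1% over all genes. The median log2 fold change, Sst over Trpv1, was −1.36 over the 9 genes and 0.01 over all genes tested.

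**Figure D1:**
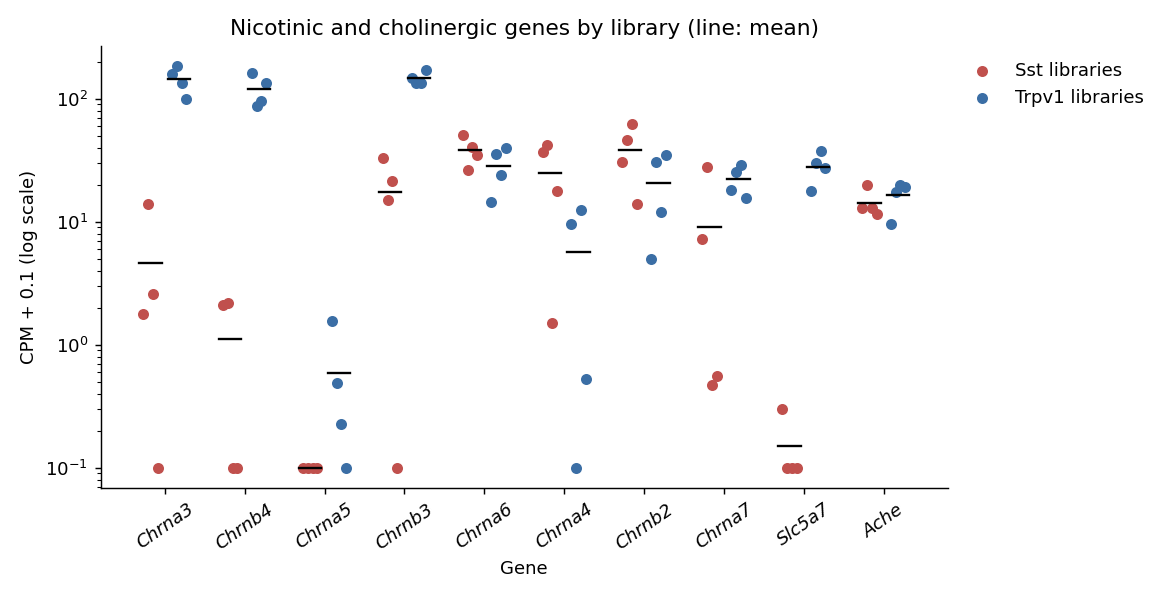
CPM of the 10 genes in each library, with 0.1 added so that 0 can be drawn on the log axis; points are libraries (4 Sst left of 4 Trpv1 for each gene) and lines are group means. Chrna3, Chrnb4, Chrnb3 and Slc5a7 show a gap between the groups, and the other 6 genes overlap.

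Chrna3, the alpha subunit gene of the ganglionic receptor, lies on chromosome 9 (GRCm38, 55010111 to 55026562, minus strand). It had 1.69, 13.7, 2.50 and 0 CPM in Sst replicates 1 to 4, against 158, 184, 134 and 100 CPM in Trpv1 replicates 1 to 4. Every Trpv1 library stood above every Sst library, and within the Sst group replicate 2 stood above the others. Its means were 4.48 ± 6.26 CPM in Sst libraries and 144 ± 35.5 CPM in Trpv1 libraries (SD, n = 4 each), with a fitted log2 fold change of −5.09 (SE 0.512). The SE was 0.987 with the earlier quasi-likelihood method of edgeR and 1.254 with DESeq2. The within-group SD of log2 CPM of Chrna3 was 1.78, above that of 99% of the 1781 genes at a like level. Without Sst replicate 2 the log2 fold change was −6.67. In the libraries named above as without pituitary hormone RNA (3 Sst and 1 Trpv1) it was −6.13.

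Chrnb4, the beta subunit gene that partners Chrna3 in ganglia, lies just upstream in the same orientation (chromosome 9, 55028154 to 55048779, minus strand). It had 1.99, 2.07, 0 and 0 CPM in Sst replicates 1 to 4, against 160, 86.6, 95.1 and 134 CPM in Trpv1 replicates 1 to 4. Only replicates 1 and 2 of the Sst group held any counts, 20 and 19, while each Trpv1 library held at least 677. The fitted log2 fold change was −6.95 (SE 0.585), which was −7.57 without Sst replicate 1 and −7.52 without Sst replicate 2. The SE was 0.889 with the earlier quasi-likelihood method of edgeR and 1.375 with DESeq2. The within-group SD of log2 CPM of Chrnb4 was 1.42, above that of 87.2% of the 1730 genes at a like level.

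Chrnb3, an accessory beta subunit gene on chromosome 8 (27368711 to 27399730, plus strand), differed less and was not scarce in most Sst libraries. It had 32.6, 14.8, 21.2 and 0 CPM in Sst replicates 1 to 4, against 146, 133, 134 and 170 CPM in Trpv1 replicates 1 to 4. The Trpv1 libraries lay close together, and Sst replicate 4 held 0 counts among 12153109, where the other Sst libraries held 136 to 327. The fitted log2 fold change was −3.10 (SE 0.450). The SE was 0.910 with the earlier quasi-likelihood method of edgeR and 1.261 with DESeq2. The within-group SD of log2 CPM of Chrnb3 was 2.39, above that of 99.9% of the 1658 genes at a like level. This gene was called lower in 13 of 16 alternative fits and was not called with DESeq2, with the earlier quasi-likelihood method of edgeR, or in the libraries without pituitary hormone RNA.

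Chrna5, an accessory alpha subunit gene, shares the chromosome 9 locus (54980880 to 55007779, plus strand) and ends 2331 bases from Chrna3. It had 0 counts in all 4 Sst libraries and 14, 3, 1 and 0 counts in Trpv1 replicates 1 to 4. With so few counts it did not pass the expression filter. Taking a floor of 3 counts over the Sst group (0.0731 CPM), it was at least 7.08-fold lower there, and 14 of the 18 Trpv1 counts came from a single library. Intervals and floors for low counts cover counting error only, since these reads carried no molecular identifiers.

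Chrna6 (chromosome 8, 27403212 to 27413944, minus strand), the neighbour of Chrnb3, was counted in every library. Its SD of log2 CPM was 0.392 in Sst libraries and 0.656 in Trpv1 libraries. The within-group SD was 0.54, where the median of the 1663 genes at a like level was 0.59. It had 50.6, 26.4, 40.2 and 34.6 CPM in Sst replicates 1 to 4, against 14.4, 35.2, 23.7 and 39.8 CPM in Trpv1 replicates 1 to 4. The groups overlapped, and the fitted log2 fold change was 0.43 (SE 0.402). The level of Chrnb3 per length was 0.294, 0.256, 0.241 and 0 times that of Chrna6 in Sst replicates 1 to 4, and 4.63, 1.73, 2.58 and 1.94 times in Trpv1 replicates 1 to 4. Thus Chrna6 exceeded its neighbour in each Sst library and lay under it in each Trpv1 library.

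Chrna4 and Chrnb2, the subunit genes of the common brain receptor, overlapped between the populations and varied widely within each. Chrna4 (chromosome 2, 181018380 to 181043546, minus strand) had 36.9, 42.2, 1.39 and 17.8 CPM in Sst replicates 1 to 4, against 9.52, 0, 12.4 and 0.425 CPM in Trpv1 replicates 1 to 4. Sst replicates 1, 2 and 4 lay above every Trpv1 library, and Sst replicate 3 lay among the Trpv1 libraries. The fitted log2 fold change of Chrna4 was 2.11 (SE 0.789). It was called higher without Sst replicate 3, where the value was 2.54, and in none of the other 15 alternatives. Its within-group SD of log2 CPM was 2.58, above that of 99.7% of the 1621 genes within 0.5 log2 units of its mean level.

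Chrnb2 (chromosome 3, 89746195 to 89764632, minus strand) had 30.3, 46.4, 62.5 and 13.9 CPM in Sst replicates 1 to 4, against 4.86, 30.6, 11.9 and 34.4 CPM in Trpv1 replicates 1 to 4. The groups overlapped, and the fitted log2 fold change was 0.91 (SE 0.518). Exons of Chrnb2 and of Adar on the opposite strand share 1365 bases, 16.3% of the exon length of Chrnb2, and no source used here states a strand setting for the counting. Counts of Chrnb2 are therefore uncertain. Adar averaged 18.6 ± 10.5 CPM in Sst libraries and 10.8 ± 3.20 CPM in Trpv1 libraries (SD, n = 4 each), and its lowest value in each group came from the same library as that of Chrnb2, Sst replicate 4 and Trpv1 replicate 1.

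Chrna7 (chromosome 7, 63098692 to 63212569, minus strand) had 7.07, 27.9, 0.371 and 0.453 CPM in Sst replicates 1 to 4, against 18.1, 25.4, 28.6 and 15.5 CPM in Trpv1 replicates 1 to 4. The Trpv1 libraries lay within a narrow range, whereas Sst replicate 2 matched them and Sst replicates 3 and 4 were near 0. The within-group SD of log2 CPM of Chrna7 was 1.95, above that of 97.4% of the 1724 genes at a like level. The fitted log2 fold change was −1.36 (SE 0.689). Without Sst replicate 2 it was −3.08 and the gene was called lower, as in none of the other 15 alternatives.

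Slc5a7, the choline transporter gene (chromosome 17, 54273590 to 54299034, minus strand), had 2, 0, 0 and 0 counts in Sst replicates 1 to 4, against 171, 232, 293 and 254 counts in Trpv1 replicates 1 to 4. In CPM the Trpv1 libraries stood at 17.7, 29.7, 37.2 and 27.0. The groups were far apart, and both Sst counts came from replicate 1. The ratio of Trpv1 to Sst levels was 560 (95% exact binomial counting interval 155 to 4633). Without Sst replicate 1 the Sst group held 0 counts, so no ratio can be formed there.

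Ache (chromosome 5, 137287519 to 137294466, plus strand) had 12.9, 19.7, 12.7 and 11.5 CPM in Sst replicates 1 to 4, against 9.42, 17.3, 19.9 and 18.9 CPM in Trpv1 replicates 1 to 4. The ranges overlapped almost wholly, with a fitted log2 fold change of −0.20 (SE 0.50). Its within-group SD of log2 CPM was 0.42, below that of most of the 1782 genes at a like level, whose median was 0.77.

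Divided by exon length, the order of the members differed between the populations. In Sst libraries Chrna6 stood first at 13.1 ± 3.50 CPM per kb, above the next gene in all 4 libraries. Chrna4 at 4.89 ± 3.72, Chrnb2 at 4.57 ± 2.49, Ache at 3.08 ± 0.806 and Chrnb3 at 2.69 ± 2.13 CPM per kb followed, then Chrna7 at 1.99 ± 2.89 and Chrna3 at 0.851 ± 1.19. From Chrna4 down, each gene's SD range overlapped with that of the next. Such ranges do not use the pairing of genes within a library, so differences between those neighbours were not tested. In Trpv1 libraries Chrnb4 stood at 31.9 ± 9.22, Chrna3 at 27.3 ± 6.75 and Chrnb3 at 22.9 ± 2.65 CPM per kb, with overlapping SD ranges (SD, n = 4 each). Chrna6 came next at 9.73 ± 3.94 CPM per kb, below Chrnb3 in all 4 libraries and beyond the SDs of both. It stood above Slc5a7 in all 4 libraries, although their SD ranges overlapped. Slc5a7 at 4.94 ± 1.43, Chrna7 at 4.86 ± 1.36, Ache at 3.54 ± 1.03, Chrnb2 at 2.44 ± 1.70 and Chrna4 at 1.11 ± 1.26 CPM per kb closed the order above Chrna5, each overlapping with the next.

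The summed level of the 8 subunit genes was 35.9, 34.7, 25.5 and 17.2 CPM per kb in Sst replicates 1 to 4, against 108, 101, 90.4 and 103 CPM per kb in Trpv1 replicates 1 to 4. Chrna3 and Chrnb4 together made up 0% to 9.12% of that sum in Sst libraries and 53.4% to 67.7% in Trpv1 libraries. Chrna6 made up 26.2% to 69.2% in Sst libraries and 4.59% to 13.3% in Trpv1 libraries. Chrna4 and Chrnb2 together made up 30.2% to 40.2% in Sst libraries and 2.30% to 4.31% in Trpv1 libraries. Their joint share was narrow in Sst libraries although each gene alone varied widely, with Chrna4 at 1.09% and Chrnb2 at 29.3% in Sst replicate 3. These shares describe transcripts and not assembled receptors.

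**Figure D2:**
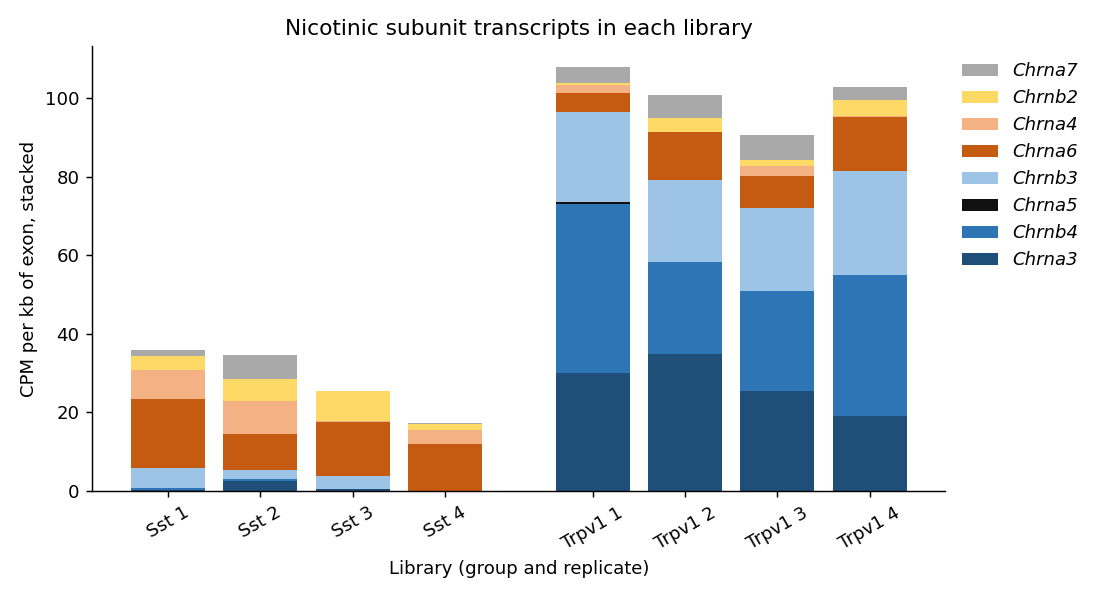
Stacked levels of the 8 subunit genes in each library, in CPM per kb of exon (Sst replicates left, Trpv1 replicates right). The Sst bars reach 17.2 to 35.9 and are mostly Chrna6, Chrna4 and Chrnb2; the Trpv1 bars reach 90.4 to 108 and are mostly Chrna3, Chrnb4 and Chrnb3.

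Markers of other cell types were read beside these genes. Of the autonomic neuron markers, Phox2a, Dbh, Hand2 and Ddc had 0 counts in all 8 libraries, and Th had 0 to 7.14 CPM in Sst libraries and 1.02 to 9.46 CPM in Trpv1 libraries. Of 4 motor neuron markers, Mnx1 and Chat had 0 counts throughout, and Slc18a3 and Lhx3 had 0 counts over the Sst libraries and 6 and 24 counts over the Trpv1 libraries. Trpv1 replicate 4, with 0 CPM of the pituitary markers, had 100, 134, 170 and 27.0 CPM of Chrna3, Chrnb4, Chrnb3 and Slc5a7. Schwann cell and satellite glia markers summed to 471 to 789 CPM in Sst libraries and 683 to 990 CPM in Trpv1 libraries, with 0 of 6 called. Erythroid genes, listed because red cells carry acetylcholinesterase, summed to 8.39 to 26.8 CPM in Sst libraries and 4.70 to 17.4 CPM in Trpv1 libraries. Skeletal muscle markers summed to at most 1.64 CPM in Sst libraries and 2.69 CPM in Trpv1 libraries, and immune markers to at most 3.43 CPM in Sst libraries and 24.9 CPM in Trpv1 libraries. The 6 sensory neuron markers summed to 4877 to 5772 CPM in Sst libraries and 2730 to 3277 CPM in Trpv1 libraries. Snap25 made up most of these sums, at 4052 ± 372 CPM in Sst libraries and 2000 ± 271 CPM in Trpv1 libraries (SD, n = 4 each). Of the 6 markers Snap25 alone was called, higher in Sst libraries. The NP3 markers Sst, Nppb and Il31ra summed to 538 to 1007 CPM in Sst libraries and 228 to 345 CPM in Trpv1 libraries. Il31ra was called higher, at 454 ± 115 CPM in Sst libraries and 157 ± 8.71 CPM in Trpv1 libraries (SD, n = 4 each). Sst and Nppb overlapped between the populations and were not called.

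Markers of peptidergic nociceptors were lower in Sst libraries, as were Chrna3, Chrnb4, Chrnb3 and Slc5a7. Calca, which encodes the peptide CGRP, had 57.5, 55.3, 19.8 and 18.8 CPM in Sst replicates 1 to 4, against 1094, 1037, 1109 and 1553 CPM in Trpv1 replicates 1 to 4. Tac1, the substance P gene, had 22.1, 33.6, 10.3 and 19.6 CPM in Sst replicates 1 to 4, against 344, 385, 329 and 586 CPM in Trpv1 replicates 1 to 4. Kit, a receptor tyrosine kinase gene, had 8.86, 2.51, 11.8 and 1.27 CPM in Sst replicates 1 to 4, against 160, 248, 192 and 135 CPM in Trpv1 replicates 1 to 4. No library of one population reached the other for any of these. Within the Sst group Calca and Tac1 were highest in replicates 1 and 2, and Kit was highest in replicate 3. Chrnb4 held counts in Sst replicates 1 and 2 only, and Slc5a7 held 2 counts, both in replicate 1. Chrna3 had 1.69, 13.7, 2.50 and 0 CPM, and Chrnb3 had 32.6, 14.8, 21.2 and 0 CPM, in Sst replicates 1 to 4. The part of these cells in the values of Chrna3, Chrnb4, Chrnb3 and Slc5a7 was not tested.

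The genes nearest in pattern over the 8 libraries were found for the 7 members whose log2 CPM averaged 3 or more, by the root mean square difference of gene-centred log2 CPM among 6503 genes. These were protein-coding genes with a mean log2 CPM of 3 or more. Predicted genes, pseudogenes and genes on the X and Y chromosomes were left out. Adcyap1, which encodes the peptide PACAP, the calcium channel gene Cacna1e and Calca were nearest to Chrnb4, at 0.761, 0.940 and 1.32 log2 units. The median over the 6503 genes was 3.94. Gpr149, an orphan receptor gene, was nearest to both Chrna3 (1.08) and Chrnb3 (0.969); it had 2.41 ± 1.84 CPM in Sst libraries and 56.7 ± 14.5 CPM in Trpv1 libraries (SD, n = 4 each). The next for Chrna3 were Mrgpra3 (1.39) and Calca (1.39), and for Chrnb3 Plcxd3 (0.974) and Calcb (1.00). Chrna7 was nearest to Cyp1b1 (0.890), Synpr (1.04) and Srsf12 (1.08). The other 3 members had smaller distances. Nearest to Chrna6 were Hid1 (0.179), Atf3 (0.198) and Ptpn13 (0.236), and to Chrnb2 Fis1 (0.355), Hif1an (0.394) and Dgkd (0.412). Nearest to Ache were Spcs1 (0.131), Edc4 (0.147) and Bdp1 (0.171). The medians over the 6503 genes were smaller for these members too, 0.766 for Chrna6, 1.24 for Chrnb2 and 0.678 for Ache. All these points share the same 8 libraries and the same group difference.

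The rest of the cholinergic pathway was read from a list of 38 further genes, of which 16 passed the expression filter. In edgeR with Benjamini-Hochberg adjustment over all genes, 2 were higher in Sst libraries (Lypd1 and Lynx1), 2 were lower (Bche and Chrm2) and 12 did not pass. The 4 called of 16 stand beside 6.35% over all genes, and the median log2 fold change was 0.005 over the 16 and 0.008 over all genes. Lypd1 was already known to be called when the list was drawn up.

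Genes that make and package acetylcholine were nearly without counts. Chat, which encodes the enzyme that makes acetylcholine, had 0 counts in all 8 libraries, which allows up to 0.0731 CPM over the Sst group and 0.0862 CPM over the Trpv1 group. Slc18a3, the vesicular acetylcholine transporter gene, had 0 counts in each Sst library and 6, 0, 0 and 0 counts in Trpv1 replicates 1 to 4. Slc5a7 was thus counted in all 4 Trpv1 libraries while Chat was counted in none. Among the choline transporter-like genes, Slc44a2 and Slc44a1 were abundant in both populations. Slc44a2 had 124 ± 10.4 CPM in Sst libraries and 130 ± 29.1 CPM in Trpv1 libraries. Slc44a1 had 79.8 ± 21.8 CPM in Sst libraries and 131 ± 14 CPM in Trpv1 libraries (SD, n = 4 each). Slc44a3 held 4 counts over the Sst and 2 over the Trpv1 libraries, Slc44a5 held 1 and 46, and Slc44a4 held 0 throughout. Slc44a1 did not pass (edgeR log2 fold change −0.72, adjusted p = 0.108), although its ranges did not overlap; it was called lower with DESeq2.

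Among the enzymes that break acetylcholine down and their anchors, Bche, which encodes butyrylcholinesterase, fell in Sst libraries. It had 13.3, 10.0, 10.2 and 2.18 CPM in Sst replicates 1 to 4, against 17.3, 83.8, 73.9 and 41.8 CPM in Trpv1 replicates 1 to 4. Trpv1 replicate 1 lay near the Sst libraries and the other Trpv1 libraries well above them. The fitted log2 fold change was −2.60 (SE 0.532, edgeR adjusted p = 0.00319, range 0.000136 to 0.317 over 16 alternatives), and the call was lost in the libraries without pituitary hormone RNA. Colq, the collagen tail that anchors acetylcholinesterase at the neuromuscular junction, is named here after its values were seen. It had 8.47, 0.872, 5.84 and 2.36 CPM in Sst replicates 1 to 4 and 0 counts in each Trpv1 library, at least 51.4-fold higher over a floor of 3 counts over the Trpv1 group; it did not pass the expression filter over the 8 libraries and so has no main test, while it was called higher in 2 alternatives, DESeq2 and without Sst replicate 2. Prima1, the membrane anchor of acetylcholinesterase, had 1.67 ± 1.95 CPM in Sst libraries and 3.16 ± 6.11 CPM in Trpv1 libraries, with 116 of 119 Trpv1 counts in replicate 4.

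Muscarinic receptors, which act through G proteins, were represented by Chrm2 alone at appreciable levels. Chrm2 had 1.79, 0.654, 4.91 and 0 CPM in Sst replicates 1 to 4, against 15.4, 14.8, 38.3 and 5.52 CPM in Trpv1 replicates 1 to 4. The ranges came close but did not overlap. The gene fell in Sst libraries (−3.26 on the log2 scale with an SE of 0.826; edgeR adjusted p = 0.0151, range 0.00463 to 0.721 over 16 alternatives). The call was lost in 6 of them, among them without Sst replicates 1 or 2 or Trpv1 replicate 3 (adjusted p = 0.0581, 0.0556 and 0.0885). The log2 fold change was −4.47 without Sst replicate 3, −2.65 without Trpv1 replicate 3 and −1.26 in the libraries without pituitary hormone RNA (adjusted p = 0.721). Chrm1, Chrm3, Chrm4 and Chrm5 held at most 13 counts over either group.

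Among genes whose products bind or help assemble nicotinic receptors, 2 of the 9 tested were called. Lypd1 encodes a membrane-anchored modulator of nicotinic receptors, and rose in Sst libraries. It had 560, 432, 309 and 105 counts in Sst replicates 1 to 4, against 0, 0, 1 and 0 counts in Trpv1 replicates 1 to 4. The ratio of Sst to Trpv1 levels was 1192 (95% exact binomial counting interval 214 to 47112; edgeR adjusted p = 0.000347, range 2.83e-14 to 0.300 over 16 alternatives). It rests on 1 count in Trpv1 replicate 3: without that library the Trpv1 group held 0 counts and no ratio can be formed. Lynx1, its relative and likewise a receptor modulator, had 268, 409, 552 and 142 CPM in Sst replicates 1 to 4, against 143, 174, 92.5 and 204 CPM in Trpv1 replicates 1 to 4. Replicate 4 of the Sst group lay among the Trpv1 libraries, and the log2 fold change was 1.16 (SE 0.315, edgeR adjusted p = 0.0282). That call was lost in 10 of 16 alternatives (range 0.00187 to 0.686), among them the replicate block (0.122) and the removal of Sst replicates 2 or 3 or Trpv1 replicates 1, 2 or 3. The assembly chaperone genes did not pass: Ric3 had 88.4 ± 34.3 CPM in Sst libraries and 83.8 ± 4.94 CPM in Trpv1 libraries, and Tmem35, which encodes the chaperone NACHO, had 12.6 ± 9.02 CPM in Sst libraries and 3.94 ± 5.35 CPM in Trpv1 libraries (SD, n = 4 each). Of the 8 nicotinic subunit genes outside the set, Chrnb1 alone passed the filter (5.98 ± 2.59 CPM in Sst libraries and 5.16 ± 5.27 CPM in Trpv1 libraries), and Chrna9 and Chrnd had 0 counts in all 8 libraries.

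**Figure D3:**
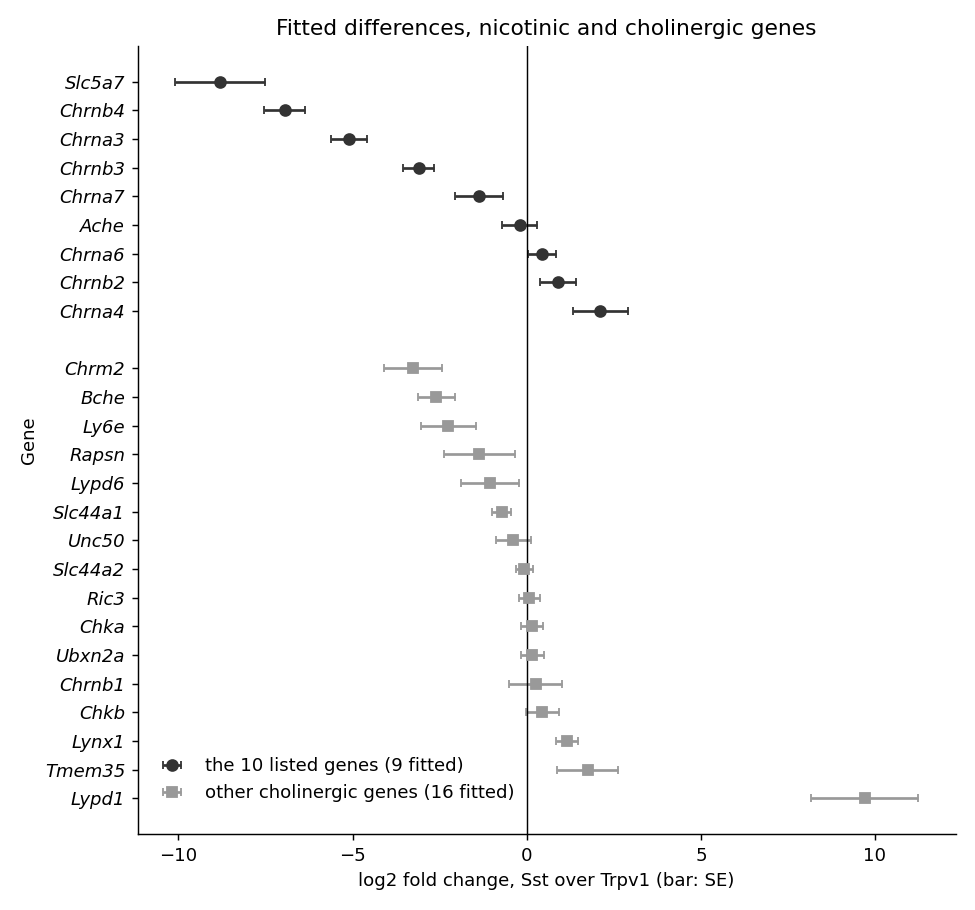
Fitted log2 fold changes, Sst over Trpv1, with SE, for the 9 fitted members (circles) and 16 other fitted cholinergic genes (squares); values left of 0 are lower in Sst libraries. The members run between −8.80 for Slc5a7 and 2.11 for Chrna4, and among the others Lypd1 stands apart at 9.70; both of these extreme values set a group with 2 or fewer counts against the other and depend on the prior count.

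Both groups of linked subunit genes were set beside their genomic neighbours. Chrna5, Chrna3 and Chrnb4 span 67900 bases of chromosome 9, with 1591 bases between Chrna3 and Chrnb4; Chrnb3 and Chrna6 span 45234 bases of chromosome 8 and are convergent, with 3481 bases between them. Within 200 kb of either span, 13 other protein-coding genes of the table were found, of which 6 passed the filter and 1 was called in edgeR. On chromosome 9 Ireb2 (118 ± 44.4 CPM in Sst libraries and 111 ± 26.5 CPM in Trpv1 libraries) and Psma4 (28.8 ± 7.84 CPM in Sst libraries and 37.1 ± 13.5 CPM in Trpv1 libraries) did not pass. Fbxo22, an F-box gene 160 kb from the cluster, was higher in Sst libraries at 120 ± 18.7 CPM, against 60.4 ± 22.5 CPM in Trpv1 libraries. Its fold change on the log2 scale was 0.98, with an SE of 0.298 and an adjusted p of 0.0488 in edgeR. That call was lost in 12 of 16 alternatives (adjusted p range 0.0306 to 0.436), among them the removal of any single library except Trpv1 replicate 2. Of the 6 neighbours tested, 1 was called higher and 0 lower, beside 3.04% and 3.31% over all genes. The 6 genes are too few for these counts to be read against those shares. Rab11fip1, near Chrnb3 and named after its values were seen, held 10 counts over the Sst libraries and 264 over the Trpv1 libraries, all in replicates 1 and 2; it did not pass the filter and was called lower in the fit without one.

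**Figure D4:**
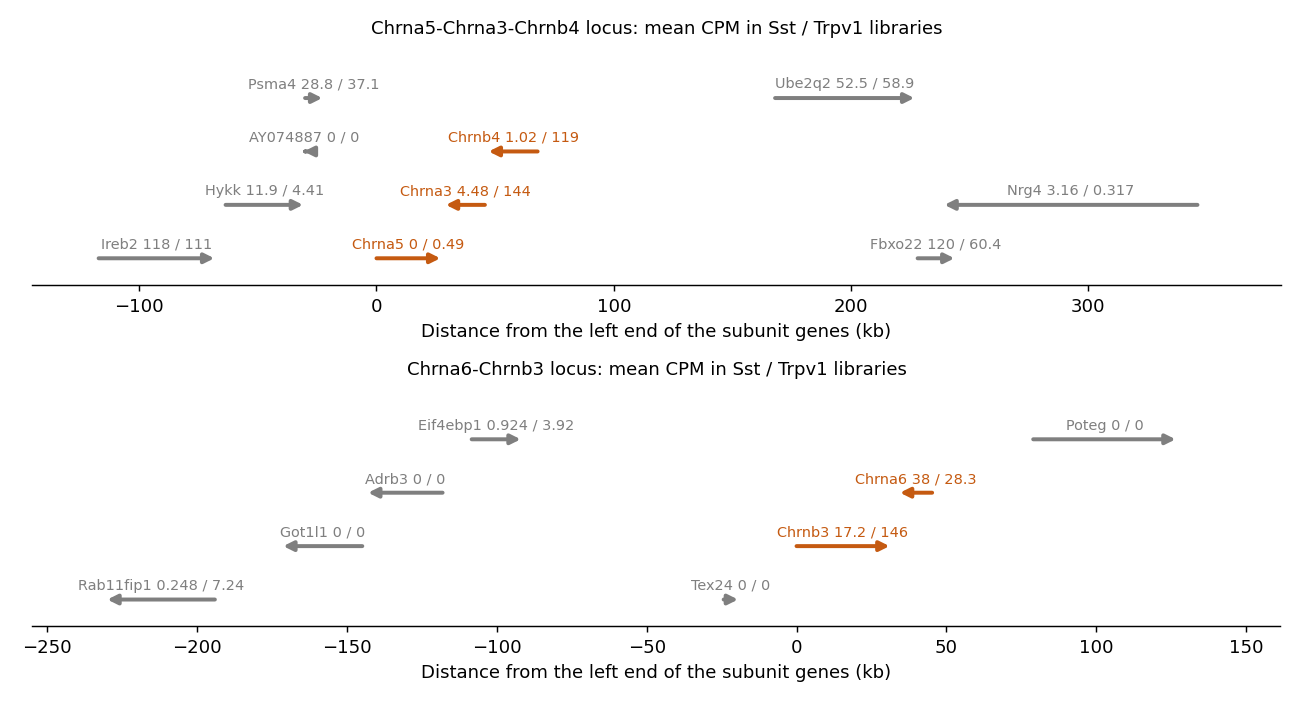
Maps of both subunit gene clusters with protein-coding neighbours within 200 kb; arrows show gene extent and strand, the horizontal axis is distance in kb from the left end of the subunit genes, and the numbers after each name are mean CPM in Sst and in Trpv1 libraries. Subunit genes are orange. Chrna3 and Chrnb4 read 4.48 and 1.02 in Sst libraries, against 144 and 119 in Trpv1 libraries, whereas Ireb2 reads 118 in Sst libraries and 111 in Trpv1 libraries.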

How the data were processed

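RNA of hand-picked DRG neurons was extracted with a PicoPure kit, amplified with the Ovation RNA-seq system and made into Nextera XT libraries, per the labels' protocols; amplification from small pools can add spread to scarce transcripts. The authors deposited raw counts, whole reads per gene symbol for 8 samples, with 0 columns left unused. Per the submitters' processing notes, reads passed bcl2fastq 2.17 and Trimmomatic 0.33 and were counted with featureCounts on GRCm38; aligner, annotation and strand setting: not given in the sources used here. Totals were 7419027 to 12153109 per sample, and no 2 replicates were alike within counting error (chi-square per degree of freedom 40.0 to 100.0 over 12 pairs).

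The counts were fitted with edgeR 4.0.16 (R 4.3.3): TMM scaling, the expression filter at a minimum count of 10 (11828 genes kept), robust quasi-likelihood F tests in the current form of edgeR, group as the sole term, two-sided, Benjamini-Hochberg adjustment over all genes, threshold 0.05. Labels say that the 4 samples per genotype were independent. Fold changes are Sst over Trpv1; standard errors come from the fold change and F. Log2 CPM used a prior count of 2. Exon lengths and positions came from GENCODE M21, with promoters from RefSeq. The script was tested on simulated data. The other cholinergic genes, the neighbour window of 200 kb and the naming rule (all members, each called gene, the most abundant of each sublist, the 3 nearest genes in pattern) were set with earlier results of these data known, as were the members. Other genes of those lists (Chat, Slc18a3, Slc44a1, Slc44a3, Slc44a4, Slc44a5, Colq, Prima1, Ric3, Tmem35, the muscarinic genes besides Chrm2, Ireb2 and Psma4) and Adar are named after their values were seen. Some markers of the lists are not reported here. Tmem35a was found under its older symbol Tmem35. Alternatives were RLE size factors, no filter, a stricter filter (5 CPM in 4 libraries), DESeq2 1.42.0, the replicate block, each library left out, the 6 libraries with Xist, and, added after seeing the data, the earlier quasi-likelihood method and the libraries without pituitary hormone RNA.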

Additional observations from a re-analysis of the deposited data

Results flagged for a closer look

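2 of the 27 groups of 4 libraries that were examined were flagged as holding a library far from the other 3. The rule set the gap between that library and its nearest neighbour against the range of the group. Both flagged groups held counts in 1 library only, so gap and range were equal and the flag followed whatever the value. The rate of about 1 in 20 expected by chance does not hold for such counts, and no conclusion is drawn from the flags. Slc5a7 stood at 0.199 CPM (2 counts) in Sst replicate 1 and at 0 in the other Sst libraries. Lypd1 stood at 0.127 CPM (1 count) in Trpv1 replicate 3 and at 0 in the other Trpv1 libraries. Both values lie below the level that 3 counts give in the same library, 0.299 CPM in Sst replicate 1 and 0.381 CPM in Trpv1 replicate 3.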

How the results depend on the processing

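Over 16 alternatives, 0 of 144 refitted member fold changes changed sign, and 142 moved by less than the gene's SD of log2 CPM between replicates, a wide margin for Chrna7 (−3.08 without Sst replicate 2), Chrna3 (−6.67 without Sst replicate 2) and Chrnb2 (0.09 in the libraries without pituitary hormone RNA). Chrna4 moved to 5.44 in the libraries without pituitary hormone RNA (3 Sst and 1 Trpv1), and Slc5a7 to −11.02 without Sst replicate 1, where 0 Sst counts are left and the value measures no size. The 4 members called became 3 with DESeq2 and with the earlier quasi-likelihood method, 2 without pituitary hormone RNA, where Chrnb3 and Slc5a7 were not called, and 4 to 5 with a library left out. Calls over all genes, 751, became 493 with the earlier method, 305 in the libraries with Xist, 52 without pituitary hormone RNA, 1204 with DESeq2, and 452 to 747 with a library left out. The 4 calls among other cholinergic genes became 2 with the earlier method, 2 in the libraries with Xist, 0 without pituitary hormone RNA (edgeR, 3 against 1 libraries), 5 with DESeq2 (Colq and Slc44a1 gained, Lynx1 lost), and 2 to 4 with a library left out. The 1 call among neighbours became 0 with RLE size factors, with the earlier method, in the libraries with Xist and without pituitary hormone RNA, 2 without a filter, and 0 to 1 with a library left out.

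Same-numbered libraries did not deviate together over all genes tested (correlations −0.0296 to 0.0316), so no pairing by number was seen. A pairing that touches few genes could be missed by these correlations. With the replicate block 572 genes, 4 members, 3 other cholinergic genes and 0 neighbours were called. The single Trpv1 library without pituitary hormone RNA is assumed to vary like the Sst libraries. Depth limits Chrna5, Chrnb4 and Slc5a7 in Sst libraries, where counts were 39 or fewer over the group.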
